A study of Mus musculus with 25 samples.

Results

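Cholesterol and fatty acid synthesis and the export of lipid from macrophages were followed through 34 genes out of the 24411 genes counted in each library. The genes were taken by symbol from a fixed list and fall into 4 roles: 16 enzymes of sterol synthesis, 5 genes of sterol sensing and SREBP control, 8 enzymes of fatty acid synthesis, and 5 genes of efflux and sterol handling, some of which are targets of liver X receptors (LXRs). RNA-seq was performed on 25 samples in 9 groups. Bone marrow-derived macrophages (BMDMs) of C57BL/6 mice, matured over 4 days in medium with M-CSF (25 ng/ml), gave 7 groups of 3. These were control cells and cells given 100 U/ml IFN-γ and 100 ng/ml LPS (IFN-γ-LPS, the stimulus for classical or M1 activation), labelled 1, 4, 12 or 24 h. The rest were cells given 10 ng/ml IL-4 or 10 ng/ml IL-13 (the stimuli for alternative or M2 activation) for 12 h. The study calls the IFN-γ-LPS cells primed with IFN-γ before LPS, for a time not given in the sources used here. Their hours may thus count LPS alone, and the control cells had no priming. RAW264.7, a mouse macrophage line derived from a virus-induced tumour, gave 2 groups of 2, control cells and cells given 100 ng/ml LPS alone for 4 h, without IFN-γ. The control BMDMs were labelled as cultured for 4 h and serve every BMDM comparison with control, so that time in culture and treatment cannot be told apart at 1, 12 and 24 h. The study's methods call the BMDM libraries of a condition biological replicates made from separate RNA samples; whether these or the RAW264.7 samples came from separate mice or cultures is not given in the sources used here, so the p-values measure the spread between these samples.

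Sterol synthesis runs from acetyl-CoA through mevalonate, farnesyl pyrophosphate and squalene to lanosterol and cholesterol. Its enzymes and those of fatty acid synthesis are switched on by SREBP transcription factors, which SCAP escorts out of the endoplasmic reticulum when sterol is low and which INSIG proteins hold back when sterol is high. LXRs answer to oxysterols in the opposite sense: in macrophages they raise the cholesterol exporters ABCA1 and ABCG1 and the ubiquitin ligase MYLIP, and they also raise Srebf1. Ch25h makes the oxysterol 25-hydroxycholesterol, and Soat1 stores cholesterol as esters.

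Promoters are shown first because the split between synthesis and efflux genes is usually described through motifs near the start site. Windows from 250 bases before to 50 bases after the start (RefSeq, GRCm38.p6) were at hand for 26 of the 34 genes, and motifs were searched on both strands. Abcg1, Sqle, Fdps, Fdft1, Scd1, Scd2, Fads1 and Stard4 had no window and were not searched. The CCAAT box (letters CCAAT) was in a window of 13 of 13 sterol synthesis genes that had one, against 41.06% of all 27025 genes with a window. It was in 3 of 4 SREBP control genes, 2 of 5 fatty acid genes and 2 of 4 efflux genes. The sterol regulatory element, spelled TCACNCCAC, was found in Hmgcs1 alone, the enzyme that makes HMG-CoA, with its first base at -137, against 1.436% of all genes. Other spellings of it were not searched. The E-box (letters CACGTG) was in 6 of the 26 genes, against 8.093% of all genes. These were Hsd17b7, Sc5d, Dhcr7, Insig1, Scap and Abca1. In the following windows capitals mark the CCAAT box on either strand and, in Hmgcs1, the sterol regulatory element (TCACCCCAC) also. They are Hmgcs1 (chr13:119690101-119690400, plus strand) and 1 of the 3 windows listed for Dhcr7, the last enzyme of cholesterol synthesis (chr7:143829964-143830263, plus strand).
Hmgcs1: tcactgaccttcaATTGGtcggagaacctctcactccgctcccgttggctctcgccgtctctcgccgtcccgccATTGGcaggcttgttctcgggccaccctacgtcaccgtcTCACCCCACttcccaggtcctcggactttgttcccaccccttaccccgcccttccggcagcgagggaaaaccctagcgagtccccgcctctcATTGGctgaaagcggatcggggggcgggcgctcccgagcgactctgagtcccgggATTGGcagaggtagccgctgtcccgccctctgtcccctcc
Dhcr7: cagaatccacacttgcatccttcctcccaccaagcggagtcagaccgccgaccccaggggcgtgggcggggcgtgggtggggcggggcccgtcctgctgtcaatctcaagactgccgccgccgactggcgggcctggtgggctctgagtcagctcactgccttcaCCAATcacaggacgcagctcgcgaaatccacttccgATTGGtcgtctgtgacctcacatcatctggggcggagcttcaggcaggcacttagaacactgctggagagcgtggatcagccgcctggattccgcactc

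The LXR site is a repeat of a short motif with a spacer of 4 bases (DR4). Its strict form, AGGTCA on either side of 4 bases of any kind, was in no window of the 26 genes searched and in 0.0148% of all genes. A looser form, GGTNA on either side of 5 bases of any kind, was chosen with these genes in view. It was in Abca1, Srebf1 and Fasn, against 0.8178% of all genes, and overlapped none of the motifs above in them. Abca1 and Fasn held the same 15 letters, at -67 and -225, while Srebf1 held TGACCGCCAGTAACC at -182 of 1 of its windows. Capitals mark this motif alone in Abca1 (chr4:53159846-53160145, minus strand) and in Fasn, the fatty acid synthase (chr11:120824498-120824797, minus strand). A match is a description of letters, and binding was not measured.
Abca1: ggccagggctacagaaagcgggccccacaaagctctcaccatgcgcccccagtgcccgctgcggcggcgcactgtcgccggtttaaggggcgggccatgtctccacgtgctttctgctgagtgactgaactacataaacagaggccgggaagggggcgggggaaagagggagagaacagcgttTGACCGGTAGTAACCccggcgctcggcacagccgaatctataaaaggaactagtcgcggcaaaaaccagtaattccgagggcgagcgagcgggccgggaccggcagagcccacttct
Fasn: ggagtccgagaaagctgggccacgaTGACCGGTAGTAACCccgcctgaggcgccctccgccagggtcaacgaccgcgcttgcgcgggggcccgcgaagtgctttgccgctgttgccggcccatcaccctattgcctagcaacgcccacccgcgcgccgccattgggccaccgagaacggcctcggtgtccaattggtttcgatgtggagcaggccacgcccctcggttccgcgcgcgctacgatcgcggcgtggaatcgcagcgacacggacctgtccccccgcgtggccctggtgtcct

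Total counts on genes were 2378639 to 3357300 per library, of which the ribosomal precursor Rn45s took 20.1% to 39.8%. It was left out, and 1502618 to 2532496 counts remained. Levels are given in replicate order as CPM, the counts of a gene per 1000000 counts of its library without Rn45s, with library sizes scaled by TMM over all libraries. The summed level of 6 macrophage markers was 16124 to 30683 CPM in BMDMs and 6313 to 7321 CPM in RAW264.7, where 1 of them was at 0. Lyz2 made up most of this sum, with a mean of 20583 CPM in control BMDMs, and the others moved apart. From control to 24 h of IFN-γ-LPS the mean of Adgre1 went from 968 to 4272 CPM. Cd68 went from 859 to 355 CPM, Mertk from 81.0 to 26.8 CPM, Csf1r from 665 to 541 CPM and Itgam from 297 to 300 CPM. Summed fibroblast markers were 25.6 to 58.5 CPM in BMDMs, with ranges that overlapped the control in every group, and 0 in RAW264.7. Summed neutrophil markers were 8.68 to 16.6 CPM in control BMDMs and 17.4 to 42.7 CPM over the IFN-γ-LPS groups, above every control library. They were 10.0 to 18.9 CPM with IL-4 and IL-13 and at most 1.39 CPM in RAW264.7. The single markers did not move together. S100a8 was 5.42 to 12.3 CPM in control and at least 16.8 CPM in every IFN-γ-LPS library. S100a9 was above the control at 1 and 4 h and overlapped it at 12 h. At 24 h S100a9 was below the control, at 0.497 to 1.26 CPM against 3.25 to 4.29 CPM. Mpo was at 0 in the control and IFN-γ-LPS libraries. The part of these markers in the results was not tested. T cell and erythroid markers were at 0 in every library, and B cell, mast cell and adipocyte markers at most at 0.577 CPM, endothelial markers at most at 8.83 CPM and epithelial markers at most at 0.560 CPM in BMDMs. The treatments showed in their own markers: 4 genes of classical activation summed to 30.6 to 33.6 CPM in control BMDMs and at least 7609 CPM in every IFN-γ-LPS library, and 4 genes of alternative activation to 83.4 to 97.1 CPM in control, 1158 to 1239 CPM with IL-4 and 1955 to 2053 CPM with IL-13. In bulk RNA, fewer cells expressing a gene and less RNA per cell cannot be told apart. The share of Rn45s counts on the opposite strand was 0.0386% to 0.122% in the control, 1 h, 4 h and 12 h IFN-γ-LPS libraries and 0.00603% to 0.0214% in the 24 h, IL-4 and IL-13 libraries, so a difference in library making between these sets cannot be told apart from treatment.

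How the genes moved with IFN-γ-LPS was asked first. A gene was called at a false discovery rate (FDR) of at most 0.01 in edgeR's quasi-likelihood test across all genes, and log2 fold changes are given with their standard error (SE). The genes called higher at 1 h were Insig1, Mylip, Abca1, Pmvk and Idi1, and by 24 h most synthesis genes were lower. At 1 h, 5 of 34 genes were higher and 3 lower, 23.5% of them called (background 26%, 14.7% higher and 11.3% lower, of 9568 genes tested). At 4 h, 6 were higher and 11 lower (background 51.5%, 26% higher and 25.6% lower). At 12 h, 3 were higher and 13 lower (background 47.3%, 23.9% higher and 23.4% lower). At 24 h, 2 were higher and 22 of 34 lower (background 45.2%, 23.9% higher and 21.3% lower), and the median log2 fold change was -0.81 for the 34 genes and 0.02 for all genes. The median was 0.11 for the 34 genes against -0.03 for all genes at 1 h, -0.37 against -0.07 at 4 h and -0.37 against -0.03 at 12 h. Over the 4 times, 27 of the 34 genes were called at least once, 18 of them lower at each call, 3 higher at each call and 6 in both directions. The step from 1 h to 4 h held 2 rises and 14 falls (background 38.9%, 19.8% higher and 19.1% lower). With 1 library left out, 4 to 11 genes were called at 1 h, with 5 genes without the first or the second control library and 4 without the third 1 h library.

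**Figure D1:**
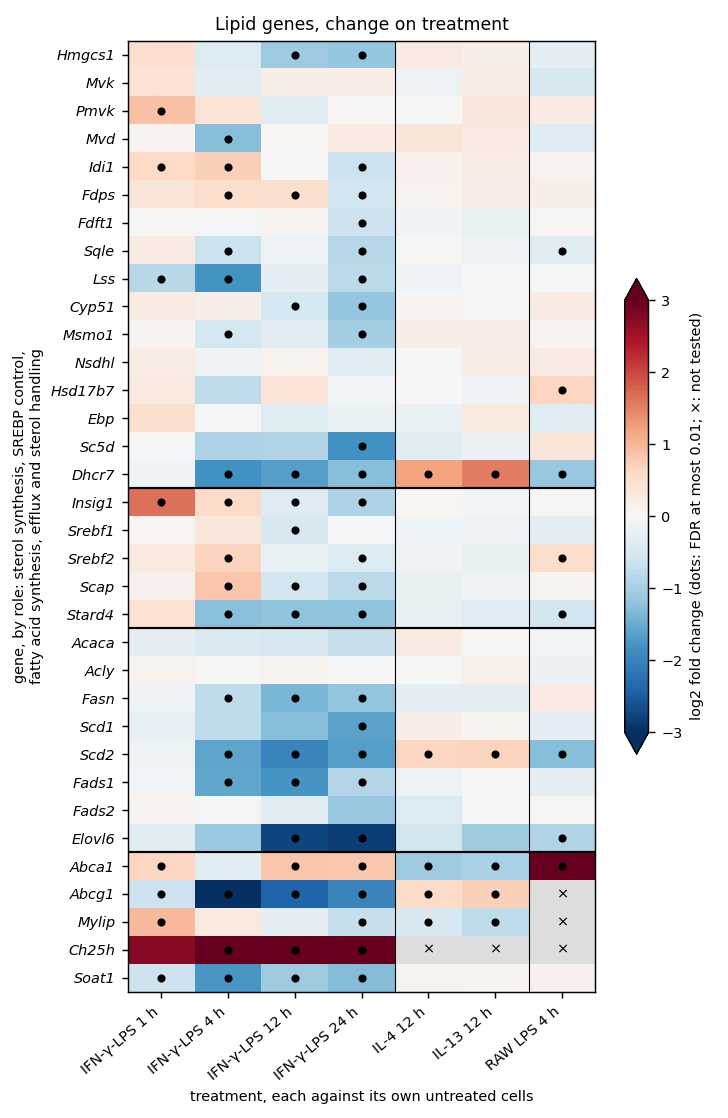
Log2 fold change (colour) of the 34 genes (rows, by role) in each treatment against its own control (columns), with dots for an FDR of at most 0.01 and crosses for genes not tested; colours saturate at 3 in either direction. Negative values spread over the synthesis rows from 4 h to 24 h of IFN-γ-LPS, while Abca1 and Ch25h are positive at 12 and 24 h. At 24 h, 10 sterol, 4 SREBP control and 5 fatty acid genes were lower, against 21.3% of all genes.

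Among the sterol synthesis genes, none was higher and 10 of 16 were lower at 24 h (background 23.9% higher and 21.3% lower). The 10 were Hmgcs1, Idi1, Fdps, Fdft1, Sqle, Lss, Cyp51, Msmo1, Sc5d and Dhcr7. The summed level of the 16 genes was 641 to 734 CPM in control, 767 to 836 CPM at 1 h, 551 to 638 CPM at 4 h, 554 to 621 CPM at 12 h and 383 to 448 CPM at 24 h. The 24 h libraries thus lay below every other BMDM library. Mvk, Pmvk, Mvd, Nsdhl, Hsd17b7 and Ebp were not called at 24 h, with log2 fold changes of -0.33 to 0.27.

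Dhcr7 was low from 4 h on. Its levels were 56.9, 49.9 and 47.0 CPM in control, 52.0, 41.8 and 49.6 CPM at 1 h, 15.1, 21.0 and 9.03 CPM at 4 h, 16.2, 15.6 and 18.2 CPM at 12 h and 23.9, 22.4 and 18.1 CPM at 24 h. Control and 1 h libraries overlapped, and the 4, 12 and 24 h libraries were all below them. The log2 fold change was -1.81 (SE 0.21, FDR 2.7e-10) at 4 h and -1.27 (SE 0.17, FDR 1.8e-08) at 24 h.

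Lss, which closes the sterol rings to make lanosterol, was lowest at 4 h. It had 24.7, 19.5 and 17.1 CPM in control, 12.3, 9.01 and 13.2 CPM at 1 h, 3.54, 5.44 and 9.03 CPM at 4 h, 19.6, 13.0 and 18.8 CPM at 12 h and 12.7, 10.9 and 11.4 CPM at 24 h. The 12 h libraries overlapped the control, and the 4 h libraries lay below both. The 1 h call was lost with DESeq2 or on leaving out control library 1 or 2 or 1 h library 1, 2 or 3, and the 24 h call with DESeq2 or on leaving out control library 1 or 24 h library 2 or 3. The log2 fold change was -1.80 (SE 0.31, FDR 2.2e-06) at 4 h, and from 4 h to 12 h Lss rose by 1.51 (SE 0.33, FDR 1.4e-04). Mvd, which makes isopentenyl pyrophosphate, had means of 19.9 CPM in control, 8.57 CPM at 4 h and 21.4 CPM at 12 h, and its change of -1.27 (SE 0.28, FDR 1.2e-04) at 4 h was not called with unstranded counts. From 4 h to 12 h, 4 sterol genes (Lss, Mvd, Sqle and Hsd17b7) were higher and 2 lower (Idi1 and Cyp51), while 6 of all 34 genes were higher and 7 lower (background 35.9%, 16.7% higher and 19.2% lower). In this step the Sqle call was lost with DESeq2 or on leaving out 4 h library 1 or 2 or 12 h library 3, the Hsd17b7 call on leaving out 4 h library 3, the Idi1 call with total counts only or on leaving out 4 h library 3 or 12 h library 3 and the Cyp51 call with total counts only.

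Sc5d, the desaturase that acts just before Dhcr7, was a low gene, at 11.8, 10.3 and 12.8 CPM in control, 8.66, 4.55 and 5.89 CPM at 12 h and 5.38, 3.48 and 1.26 CPM at 24 h. The 24 h libraries lay below the control, and the log2 fold change was -1.81 (SE 0.37, FDR 4.5e-05). Sqle, the squalene epoxidase, had 72.4, 77.0 and 83.4 CPM in control, 92.3, 93.3 and 98.6 CPM at 1 h, 48.7, 51.3 and 55.8 CPM at 4 h, 69.9, 70.2 and 76.5 CPM at 12 h and 36.7, 49.2 and 44.2 CPM at 24 h. It was below the control at 4 h (-0.63, SE 0.14, FDR 1e-04) and at 24 h (-0.84, SE 0.13, FDR 2.3e-07), with 12 h overlapping the control.

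Fdps and Idi1 were higher at 4 h and lower at 24 h. Fdps, which makes farnesyl pyrophosphate, had 62.8, 58.6 and 67.9 CPM in control, 77.8, 92.7 and 81.9 CPM at 1 h, 95.6, 102 and 85.3 CPM at 4 h, 87.2, 104 and 81.2 CPM at 12 h and 42.0, 44.7 and 42.1 CPM at 24 h. It was above the control at 4 h (0.52, SE 0.13, FDR 6.6e-04) and 12 h (0.47, SE 0.13, FDR 0.0014) and below it at 24 h (-0.56, SE 0.14, FDR 4.9e-04). The 4 h call was lost with total counts only or at least 10 counts in every sample, and its value was -0.00827 when scaled by total counts only. The 12 h call was lost with total counts only or at least 10 counts in every sample or on leaving out 12 h library 2. Fdps shares 1124 exon bases on its own strand with the gene model Gm43738 (GENCODE M21), so its counts may be incomplete. Idi1, the isomerase before Fdps, had means of 22.9 CPM in control, 35.6 CPM at 1 h, 39.2 CPM at 4 h and 14.7 CPM at 24 h, and was called higher at 1 and 4 h and lower at 24 h; its 1 h call was lost with DESeq2, total counts only or at least 10 counts in every sample or on leaving out control library 1, 2 or 3 or 1 h library 2 or 3, and its 24 h call with DESeq2 or no count filter or on leaving out control library 1, 2 or 3 or 24 h library 1 or 2.

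Hmgcs1, the gene with the sterol regulatory element, had means of 37.8 CPM in control, 54.7 CPM at 1 h, 29.9 CPM at 4 h, 18.4 CPM at 12 h and 17.0 CPM at 24 h, with a log2 fold change of -1.16 (SE 0.20, FDR 1.8e-06) at 24 h. The demethylase Cyp51 had means of 60.2 CPM in control and 27.4 CPM at 24 h (-1.15, SE 0.16, FDR 2.7e-08), and the sterol oxidase Msmo1 of 161 and 80.2 CPM (-1.01, SE 0.12, FDR 9.4e-10). Fdft1, the squalene synthase, had means of 46.8 CPM in control and 30.5 CPM at 24 h (-0.62, SE 0.17, FDR 0.0016), a call lost on leaving out control library 3 or 24 h library 1. Of the kinases of mevalonate, Pmvk was called at 1 h alone, higher by 0.88 (SE 0.22, FDR 0.0014), a call lost with DESeq2 or total counts only or on leaving out control library 2 or 1 h library 3, and Mvk was called at no time. Nsdhl, Hsd17b7 and Ebp, which act between lanosterol and cholesterol, were likewise not called against control at any time. At 1 h the libraries of Hmgcs1, Fdps, Sqle, Cyp51 and Ebp lay above every control library, without a call. The share of all genes with such a separation was not counted, so no rise is read from it.

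Scaling mattered most at 4 h. With libraries scaled by total counts only, the median log2 fold change of all genes was -0.61 at 4 h in place of -0.07, and the split of the 34 genes was 1 higher and 19 lower. The rises of Idi1, Fdps, Insig1, Srebf2 and Scap at 4 h were then not called, and the falls at 4 h were kept. Since this scaling moved log2 fold changes at 4 h downward, keeping the falls is no test of them. The same scaling gave 3 higher and 3 lower at 1 h, 2 higher and 20 lower at 12 h, 7 higher and 4 lower from 4 h to 12 h, 2 higher and 6 lower from 12 h to 24 h, and 2 higher and 22 lower at 24 h.

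Of the 5 SREBP control genes, 1 was higher at 1 h and 3 were higher and 1 lower at 4 h. At 12 and 24 h none was higher and 4 and 4 were lower. Of all genes, 14.7%, 26%, 23.9% and 23.9% were higher and 11.3%, 25.6%, 23.4% and 21.3% lower at 1, 4, 12 and 24 h. Insig1 (chr5:28071363-28078662, plus strand, GRCm38, GENCODE M21), the sterol-dependent anchor of SCAP, had 179.7, 179 and 174 CPM in control, 538, 606 and 582 CPM at 1 h, 242, 319 and 269 CPM at 4 h, 131, 163 and 128 CPM at 12 h and 85.5, 95.5 and 99.0 CPM at 24 h. Each time lay apart from the control, above it at 1 and 4 h and below it at 12 and 24 h. The log2 fold change was 1.66 (SE 0.10, FDR 4.7e-19) at 1 h, -0.39 (SE 0.11, FDR 0.0024) at 12 h (a call lost on leaving out control library 1 or 2 or 12 h library 1 or 3) and -0.93 (SE 0.11, FDR 6.9e-10) at 24 h.

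Srebf2, the SREBP that drives sterol synthesis, had 74.6, 71.6 and 79.1 CPM in control, 102, 75.3 and 105 CPM at 1 h, 126, 121 and 125 CPM at 4 h, 72.8, 72.8 and 57.7 CPM at 12 h and 56.2, 57.2 and 55.6 CPM at 24 h. It was highest at 4 h (log2 fold change 0.66, SE 0.13, FDR 1.6e-05) and lower than control at 24 h (-0.42, SE 0.13, FDR 0.0059, a call lost with no count filter or on leaving out control library 1, 2 or 3 or 24 h library 1, 2 or 3). Scap had 37.0, 38.5 and 37.4 CPM in control, 39.2, 45.0 and 41.5 CPM at 1 h, 77.0, 66.8 and 66.5 CPM at 4 h, 23.7, 26.0 and 29.4 CPM at 12 h and 27.4, 16.9 and 20.6 CPM at 24 h. It too was highest at 4 h, with a log2 fold change of 0.84 (SE 0.16, FDR 8.6e-06), and it was -0.80 (SE 0.17, FDR 9.2e-05) at 24 h; its 12 h call was lost with DESeq2, no count filter or all samples in 1 fit or on leaving out control library 1, 2 or 3 or 12 h library 1 or 2.

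Srebf1, the SREBP gene that LXR raises, had 56.3, 53.7 and 63.1 CPM in control, 66.6, 48.3 and 68.3 CPM at 1 h, 71.7, 80.0 and 74.7 CPM at 4 h, 41.0, 42.9 and 44.1 CPM at 12 h and 64.5, 46.7 and 56.0 CPM at 24 h. It was called against control at 12 h alone, at -0.48 (SE 0.15, FDR 0.0058), and that call was lost with DESeq2, no count filter or all samples in 1 fit or on leaving out control library 1 or 3 or 12 h library 1, 2 or 3. Stard4, a carrier of cholesterol to the endoplasmic reticulum, had 33.3, 30.9 and 34.2 CPM in control, 48.1, 43.1 and 46.0 CPM at 1 h, 12.4, 13.2 and 17.2 CPM at 4 h, 17.9, 16.9 and 9.42 CPM at 12 h and 18.1, 11.9 and 13.1 CPM at 24 h. The 1 h libraries were above the control but not called, the later ones were all below it, and between 1 h and 4 h the change was -1.70 (SE 0.22, FDR 5.6e-09).

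**Figure D2:**
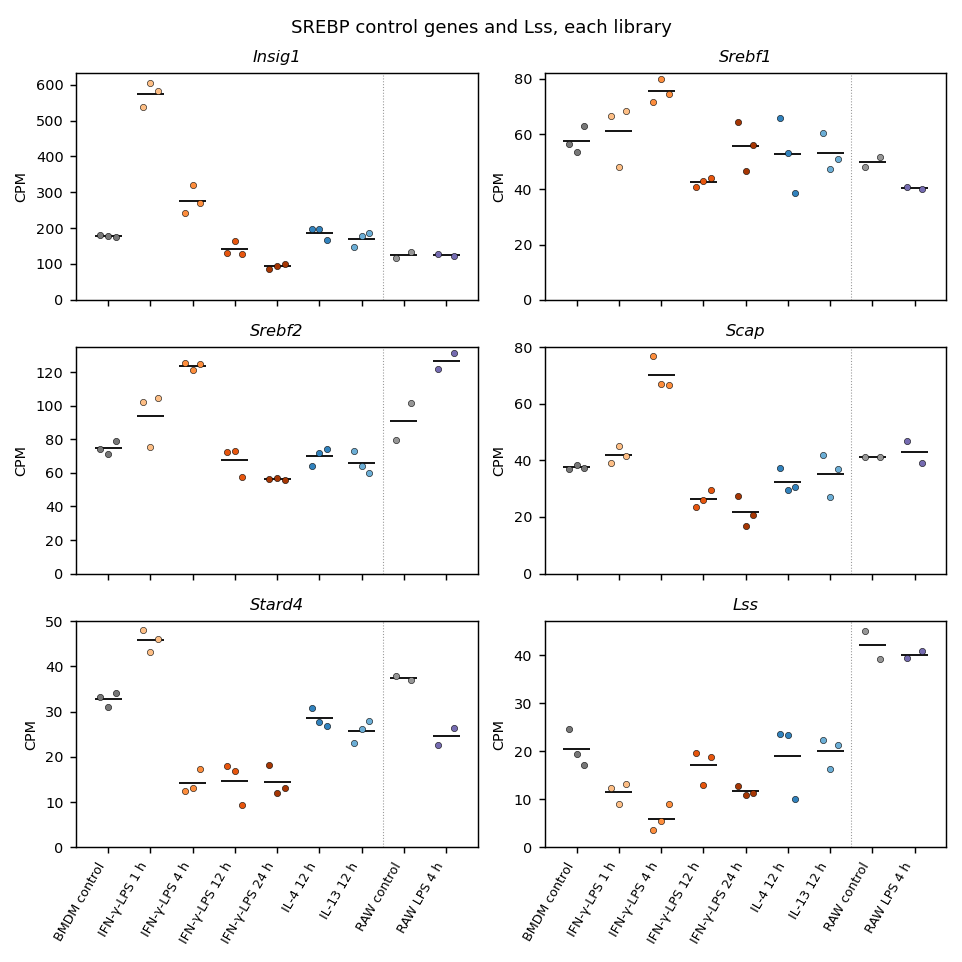
Level in CPM (vertical axes, from 0) of Insig1, Srebf1, Srebf2, Scap, Stard4 and Lss in each of the 25 libraries (points) by group, with group means (lines). Insig1 is highest at 1 h (538 to 606 CPM), Srebf2 is above its control at 4 h (121 to 126 CPM), and Lss has its lowest mean at 4 h.

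Between the times at which the 6 genes called in both directions were called, the fitted log2 change is given as a description, since the choice of genes fixed its direction. From 1 h to 24 h it was -2.60 (SE 0.11) for Insig1 and -1.69 (SE 0.12) for Mylip. From 4 h to 24 h it was -1.36 (SE 0.20) for Idi1, -1.08 (SE 0.14) for Fdps, -1.09 (SE 0.13) for Srebf2 and -1.64 (SE 0.17) for Scap.

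Of the 8 fatty acid synthesis genes none was called higher than control at any time, and 0, 3, 4 and 5 were lower at 1, 4, 12 and 24 h. Of all genes, 11.3%, 25.6%, 23.4% and 21.3% were lower at these times. Scd2, a stearoyl-CoA desaturase, had 79.4, 56.4 and 71.6 CPM in control, 64.4, 61.1 and 63.7 CPM at 1 h, 19.5, 33.4 and 18.9 CPM at 4 h, 21.4, 19.5 and 12.9 CPM at 12 h and 14.7, 26.3 and 25.3 CPM at 24 h. The libraries from 4 h on all lay below the control, and the log2 fold change was lowest at 12 h, at -1.99 (SE 0.20, FDR 9.4e-12).

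Fads1, the delta-5 desaturase of polyunsaturated fatty acids, had 51.0, 55.3 and 46.0 CPM in control, 51.5, 43.8 and 52.1 CPM at 1 h, 19.5, 17.9 and 16.4 CPM at 4 h, 18.5, 12.4 and 14.7 CPM at 12 h and 28.8, 24.9 and 28.6 CPM at 24 h. Its log2 fold change was -1.77 (SE 0.18, FDR 1e-11) at 12 h, and from 12 h to 24 h it rose by 0.89 (SE 0.20, FDR 6.5e-04). It was the 1 gene of the 34 called higher in that step, in which 7 were lower (background 14.2%, 5.31% higher and 8.9% lower). Without the second 12 h library that call was lost and 5 genes were called in all.

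Fasn, which carries the same DR4-like letters as Abca1, had 62.2, 68.9 and 68.4 CPM in control, 64.9, 50.8 and 68.8 CPM at 1 h, 49.6, 35.7 and 37.7 CPM at 4 h, 28.9, 35.1 and 16.5 CPM at 12 h and 41.5, 24.4 and 23.2 CPM at 24 h. It lay below the control from 4 h on, with a log2 fold change of -1.36 (SE 0.21, FDR 1.3e-06) at 12 h. Elovl6, an elongase, was lower at 12 and 24 h from few counts, 39 over the control libraries and 6 over those of 24 h. Set against library size, control was 7.49 times (3.15 to 21.7) as high, where brackets hold the 95% exact conditional interval, which covers counting error only. Acly, which makes cytosolic acetyl-CoA for both pathways, had means of 229 to 259 CPM in the 5 groups and was not called at any time, and neither were Acaca, the acetyl-CoA carboxylase, and Fads2. Scd1 was called lower at 24 h alone (-1.60, SE 0.46, FDR 0.0028), a call lost with DESeq2 or on leaving out control library 1 or 3 or 24 h library 2 or 3. Scd1 and Scd2 are close paralogues, and reads shared between them may be split or lost.

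**Figure D3:**
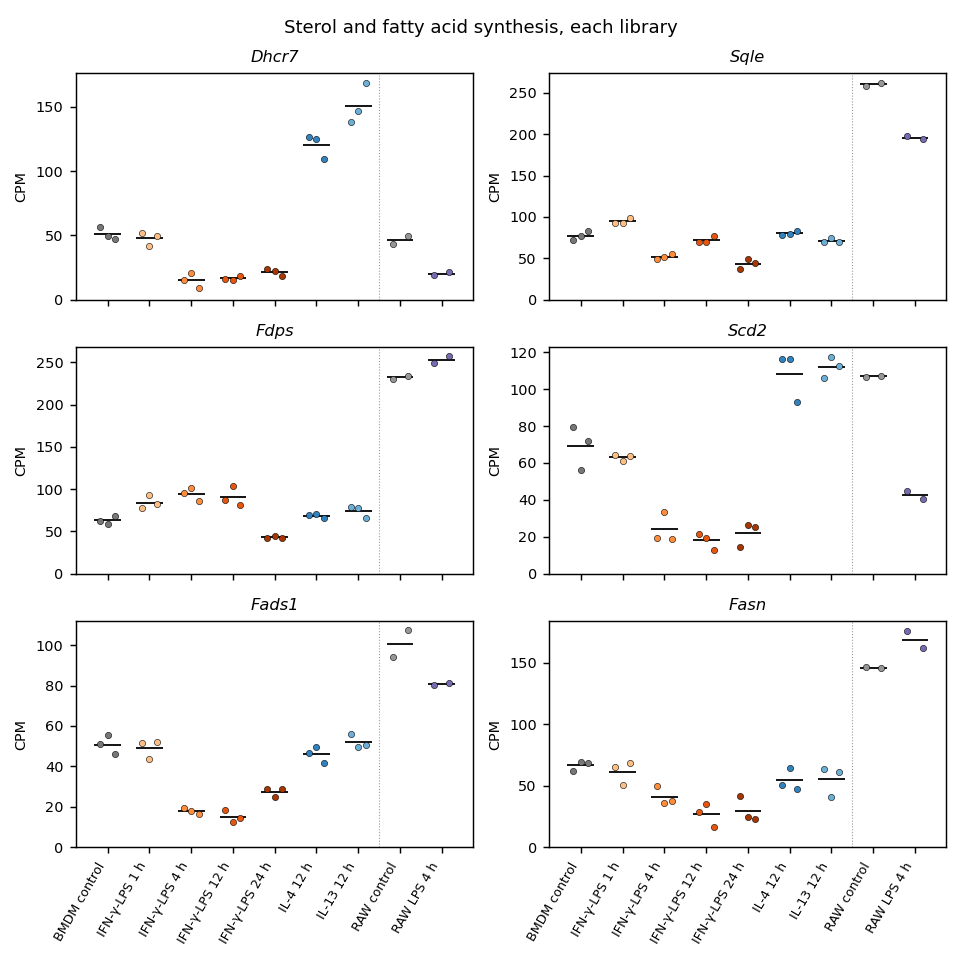
Level in CPM (vertical axes, from 0) of Dhcr7, Sqle, Fdps, Scd2, Fads1 and Fasn in each of the 25 libraries (points) by group, with group means (lines). Dhcr7 and Scd2 are low from 4 h of IFN-γ-LPS on and above the control with IL-4 and IL-13, where the Dhcr7 libraries lie at 109 to 126 and 138 to 168 CPM.

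Of the efflux genes, all 5 were called at 24 h, 2 higher and 3 lower (background 45.2%, 23.9% higher and 21.3% lower). Abca1 (chr4:53030787-53159895, minus strand), the exporter of cholesterol to lipid-poor apolipoprotein A-I, had 331, 291 and 353 CPM in control, 537, 492 and 516 CPM at 1 h, 265, 296 and 258 CPM at 4 h, 516, 534 and 732 CPM at 12 h and 604, 542 and 577 CPM at 24 h. It was above the control at 1, 12 and 24 h and overlapped it at 4 h. The log2 fold change was 0.63 (SE 0.10, FDR 1.3e-06) at 1 h, -0.31 (SE 0.11, FDR 0.011) at 4 h, not called, 0.82 (SE 0.10, FDR 1.3e-09) at 12 h and 0.82 (SE 0.10, FDR 1.4e-09) at 24 h.

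Abcg1 (chr17:31057675-31117988, plus strand), the exporter of cholesterol to HDL, had 124, 86.8 and 104 CPM in control, 71.1, 80.4 and 58.7 CPM at 1 h, 15.9, 7.77 and 17.2 CPM at 4 h, 21.4, 21.5 and 18.8 CPM at 12 h and 30.8, 26.3 and 23.6 CPM at 24 h. Every treated library lay below every control library. The log2 fold change was -3.01 (SE 0.20, FDR 6.9e-18) at 4 h, -2.39 (SE 0.17, FDR 7.8e-17) at 12 h and -1.97 (SE 0.16, FDR 2.3e-15) at 24 h, and the 1 h call was lost on leaving out control library 1 or 1 h library 3.

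Mylip (chr13:45389742-45412022, plus strand) had 93.9, 104 and 99.9 CPM in control, 205, 194 and 203 CPM at 1 h, 119.6, 129 and 128 CPM at 4 h, 83.7, 96.9 and 71.8 CPM at 12 h and 51.8, 61.1 and 69.9 CPM at 24 h. It was highest at 1 h (0.98, SE 0.11, FDR 3.2e-10) and lower than the control at 24 h (-0.70, SE 0.12, FDR 3.7e-06). Soat1 (chr1:156424525-156474331, minus strand) had 1009, 1086 and 1055 CPM in control, 663, 725 and 691 CPM at 1 h, 304, 346 and 328 CPM at 4 h, 483, 518 and 557 CPM at 12 h and 387, 472 and 432 CPM at 24 h. All its treated libraries lay below the control, with a log2 fold change of -1.74 (SE 0.09, FDR 4.7e-22) at 4 h. Per kilobase of exon, Soat1 had the highest level of the 34 genes in control BMDMs, at 107 CPM per kb, followed by Insig1 at 57.4 and Acly at 43.9 CPM per kb.

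Ch25h (chr19:34473778-34475164, minus strand) was close to 0 in control cells. Its libraries held 1.07, 0.542 and 0.534 CPM in control (4 counts in all), 5.04, 5.15 and 5.56 CPM at 1 h, 113, 84.7 and 82.0 CPM at 4 h, 72.8, 97.5 and 172 CPM at 12 h and 35.7, 32.8 and 34.1 CPM at 24 h. No treated library overlapped the control, though 1 h was not called (FDR 0.035). By summed counts the level relative to control was 159.7 times (62.0 to 588) at 12 h and 47.7 times (18.4 to 177) at 24 h, with the same kind of interval in brackets.

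**Figure D4:**
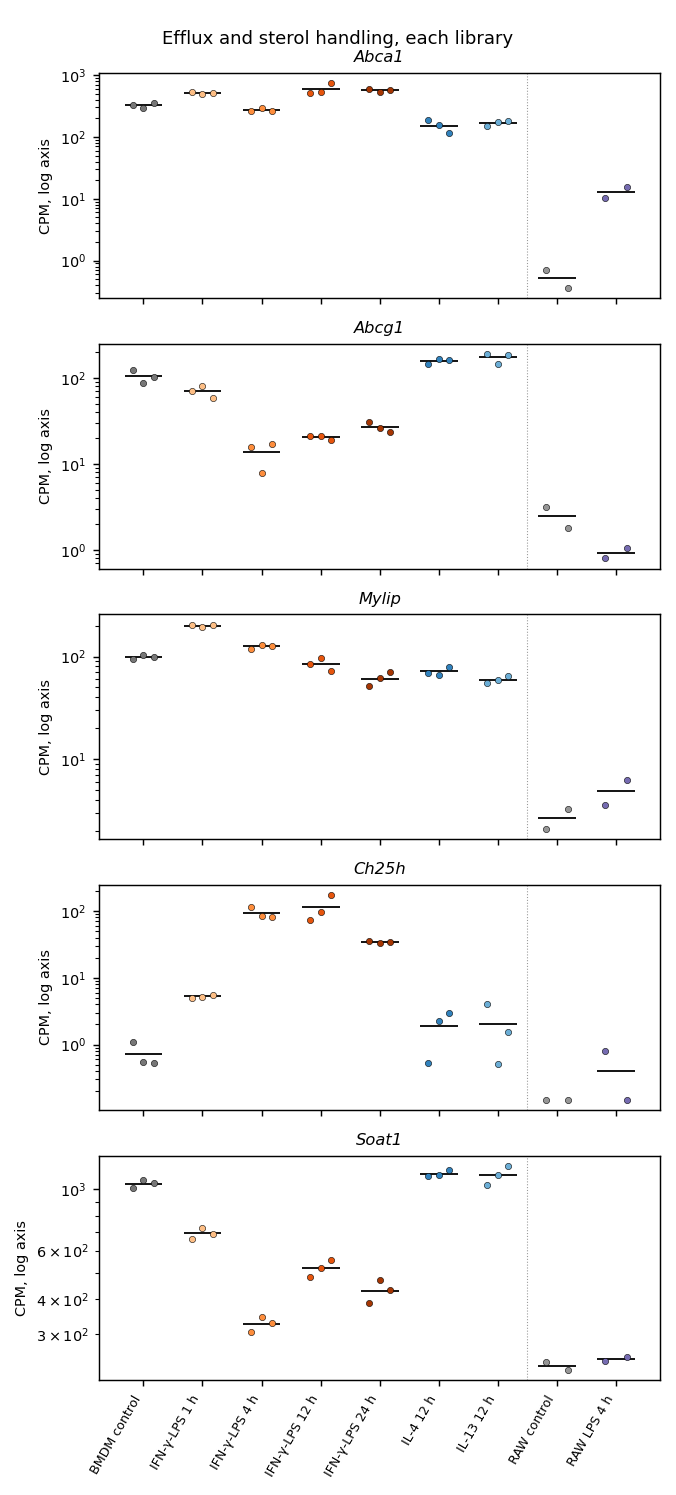
Level in CPM on log axes of Abca1, Abcg1, Mylip, Ch25h and Soat1 in each of the 25 libraries (points) by group, with group means (lines); Ch25h libraries with 0 counts are drawn at the foot of the panel. Abca1 is above and Abcg1 below the control at 12 h of IFN-γ-LPS, the reverse with IL-4 and IL-13, and Abca1, Abcg1 and Mylip are at 15.2 CPM or less in RAW264.7.

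Other genes of the same pathways came from 4 lists, 57 genes in all, chosen from textbook knowledge; at 24 h, 23.9% of all genes were higher and 21.3% lower. In the list of LXR receptors, partners and further targets, 1 of 11 genes tested was higher and 8 lower at 24 h. Nr1h3, the LXRα gene, was the one that rose, from a mean of 75.3 CPM in control to 366 CPM at 12 h and 545 CPM at 24 h, a log2 fold change of 2.85 (SE 0.11, FDR 1e-27). The largest falls at 24 h were of Arl4c, a small GTPase (-3.80, SE 0.18, FDR 1.3e-23), Nceh1, a cholesterol ester hydrolase (-2.33, SE 0.09, FDR 1.9e-26), and Lipa, the lysosomal acid lipase (-2.02, SE 0.09, FDR 4.7e-25). Rxra, the gene of the partner receptor, went from a mean of 190.1 CPM in control to 21.3 CPM at 4 h (-3.22, SE 0.17, FDR 4.2e-21).

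In the list of further sterol synthesis, uptake and control, 1 of 12 genes was higher and 5 lower at 24 h. Npc2, the lysosomal cholesterol carrier, was the one that rose (0.88, SE 0.08, FDR 1.9e-13). Npc1, the membrane partner of Npc2, was among those that fell (-0.99, SE 0.10, FDR 2.9e-12).

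Of the 18 genes tested of further fatty acid and glycerolipid synthesis, 7 were higher and 4 lower at 24 h. The largest rises were of Acsl1, an acyl-CoA synthetase, from 54.5 to 2685 CPM (5.62, SE 0.11, FDR 3.6e-39), Dgat2, which makes triglyceride, from 0.719 to 38.8 CPM (5.62, SE 0.39, FDR 2.6e-17), and Acss2, an acetyl-CoA synthetase (2.16, SE 0.29, FDR 1.2e-08), and the largest fall was of Lpin1, a phosphatidate phosphatase (-3.68, SE 0.29, FDR 1.5e-15). Of 12 genes of lipid uptake, binding and storage, 2 were higher and 9 lower at 24 h. Msr1, a scavenger receptor, rose (1.58, SE 0.14, FDR 2.2e-12), and Pparg, a nuclear receptor of lipid storage (-4.07, SE 0.29, FDR 4.8e-17), Lpl, the lipoprotein lipase (-3.15, SE 0.10, FDR 1.2e-29), and Fabp4, a fatty acid binding protein (-2.92, SE 0.17, FDR 1.7e-17), fell most.

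IL-4 and IL-13 moved few of the 34 genes, with Abca1 lower and Abcg1 higher under both. With IL-4, 3 of 33 genes tested were higher and 2 lower (background 7.63%, 4.38% higher and 3.25% lower, of 9252 genes), with a median log2 fold change of -0.02 against -0.01 for all genes. With IL-13, 3 were higher and 2 lower (background 10.1%, 5.61% higher and 4.49% lower), with a median of 0.03 against -0.01. These comparisons share their control samples with each other and with the time course. Abca1 had 185, 158 and 114 CPM with IL-4 and 148, 177 and 180.1 CPM with IL-13, all below the control (331, 291 and 353 CPM). Its log2 fold changes were -1.10 (SE 0.11, FDR 2e-10) and -0.97 (SE 0.11, FDR 2.8e-09). Abcg1 had 146, 166 and 164 CPM with IL-4 and 191, 145 and 188 CPM with IL-13, all above the control (124, 86.8 and 104 CPM). Its log2 fold changes were 0.58 (SE 0.12, FDR 1.7e-04) and 0.71 (SE 0.11, FDR 2.4e-06).

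Mylip had 69.6, 66.7 and 79.3 CPM with IL-4 and 54.6, 58.8 and 64.8 CPM with IL-13, below the control in every library. Its log2 fold change was -0.48 (SE 0.12, FDR 0.0031) with IL-4, a call lost with DESeq2 or on leaving out control library 2 or 3 or IL-4 library 1 or 2, and -0.76 (SE 0.12, FDR 2.6e-06) with IL-13. Soat1 had 1116, 1128 and 1175 CPM with IL-4 and 1038, 1126 and 1218 CPM with IL-13 and was not called. Ch25h, at 0.524, 2.22 and 2.98 CPM and 4.03, 0.511 and 1.52 CPM, held 10 and 11 counts and was not tested.

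Dhcr7 was the sterol gene called with both, at 126, 125 and 109 CPM with IL-4 and 138, 146 and 168 CPM with IL-13 against 56.9, 49.9 and 47.0 CPM in control. The log2 fold change was 1.21 (SE 0.12, FDR 3.1e-11) and 1.54 (SE 0.12, FDR 2.5e-15). The summed level of the 16 sterol genes was 770.4 to 806 CPM with IL-4 and 801 to 852 CPM with IL-13, above the control in every library (641 to 734 CPM). This sum includes Dhcr7, so it does not show a rise of the sterol genes as a set. Their median log2 fold change was 0.02 with IL-4 and 0.20 with IL-13. The other 15 sterol genes were not called, with values from -0.34 to 0.37 for IL-4 and from -0.21 to 0.32 for IL-13. Scd2 was the fatty acid gene called, at 116, 116 and 93.0 CPM and 106, 118 and 112 CPM, all above the control, with changes of 0.64 (SE 0.12, FDR 1.2e-04) and 0.68 (SE 0.12, FDR 2.9e-05).

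Insig1 had 198, 196 and 166 CPM with IL-4 and 146, 179 and 188 CPM with IL-13, Srebf1 66.0, 53.4 and 38.8 CPM and 60.4, 47.6 and 51.1 CPM, and Srebf2 64.4, 71.7 and 74.5 CPM and 73.0, 63.9 and 60.2 CPM. All 3 overlapped the control and none was called. Of the 4 further lists, 3 of 50 genes tested were higher and 2 lower with IL-4, against 7.63% of all genes called, and 4 higher and 3 lower with IL-13, against 10.1%. Npc1 was higher with IL-4 (0.45, SE 0.10, FDR 6.7e-04) and IL-13 (0.59, SE 0.10, FDR 5e-06), as were Pparg (0.96, SE 0.14, FDR 1.1e-06 and 1.07, SE 0.14, FDR 3.7e-08) and Cd36, a receptor of fatty acids and oxidised LDL (0.47, SE 0.08, FDR 5.2e-06 and 0.56, SE 0.08, FDR 9e-08). Lpin2, a phosphatidate phosphatase, was lower with both (-0.77, SE 0.11, FDR 1.5e-07 and -0.96, SE 0.11, FDR 3.4e-10).

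IL-13 against IL-4 gave 0 calls among 33 genes by edgeR's quasi-likelihood test (background 0.108%), with 3 genes at an unadjusted p under 0.05 and 0 calls by DESeq2. The largest difference was -0.53, of Elovl6, and the lowest FDR 0.38. For Dhcr7 the difference was 0.32 with a 95% interval of 0.11 to 0.53, not adjusted for the number of genes,, and for Abca1 it was 0.13 with a 95% interval of -0.10 to 0.36.

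IFN-γ-LPS was set directly against IL-4 and IL-13 at the same labelled time, 12 h. Against IL-4, 3 of 34 genes were higher and 13 lower (background 41%, 21.1% higher and 19.9% lower, of 10612 genes), and against IL-13 3 were higher and 12 lower (background 41%, 21% higher and 20% lower). Scaled by total counts only, the second split was 2 higher and 21 lower. Dhcr7 differed by -2.84 (SE 0.16, FDR 7.1e-26) from IL-4 and -3.17 (SE 0.16, FDR 2.3e-29) from IL-13, and Scd2 by -2.60 (SE 0.17, FDR 4.5e-22) and -2.64 (SE 0.17, FDR 1.2e-22). Abcg1 differed by -2.95 (SE 0.16, FDR 9.9e-27) and -3.08 (SE 0.16, FDR 3.5e-28), and Soat1 by -1.13 (SE 0.08, FDR 9e-20) and -1.12 (SE 0.08, FDR 1.6e-19). Abca1 was higher under IFN-γ-LPS, by 1.96 (SE 0.13, FDR 4.1e-17) and 1.82 (SE 0.12, FDR 2.8e-16). Ch25h was higher too, at 61.7 times (33.3 to 129) its level with IL-4 by summed counts and 59.0 times (32.7 to 119) its level with IL-13. All 6 genes were called in both comparisons. Their libraries did not overlap between IFN-γ-LPS and either cytokine, and the share of all genes without overlap was not counted.

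Untreated RAW264.7 was compared with untreated BMDMs to see how the line and the primary cell differ in these pathways. Most synthesis genes were higher and 4 of 5 efflux genes lower in the line. Of 34 genes, 18 were higher and 5 lower (background 65.6%, 31.9% higher and 33.7% lower), with a median log2 fold change of 0.62 against -0.06 for all genes. The 18 were 11 of 16 sterol genes and 7 of 8 fatty acid genes, and the 5 were Insig1, Abca1, Abcg1, Mylip and Soat1. The summed level of the 16 sterol genes was 1313 to 1336 CPM in the line and 641 to 734 CPM in BMDMs. Strain, origin and culture differ together between these cells and cannot be told apart.

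Abca1 was close to 0 in RAW264.7 controls, with 0.694 and 0.362 CPM (3 counts in all) against 291 to 353 CPM in BMDMs. By summed counts the BMDM level was 612 times (209 to 2968) that of the line. Abcg1 had 3.12 and 1.81 CPM, with the BMDM level 42.3 times (25.0 to 77.8) as high, and Mylip 2.08 and 3.26 CPM, with the BMDM level 37.3 times (22.4 to 67.1) as high. Soat1 had 238 and 222 CPM against 1009 to 1086 CPM, a log2 fold change of -2.19 (SE 0.10, FDR 5.5e-31). Ch25h had 0 counts in both libraries and 4 over the BMDM controls, too few for a fold. Insig1 had 116 and 134 CPM (-0.51, SE 0.12, FDR 1.1e-04), a call lost without the first RAW264.7 control and when scaled by total counts only. In the LXR list 10 of 11 genes tested were lower in RAW264.7 and none higher, against 33.7% of all genes lower and 31.9% higher. Apoe, an LXR target that encodes an apolipoprotein of macrophages, had a mean of 17712 CPM in BMDMs and 5.52 CPM in the line.

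Fads2, the delta-6 desaturase, had 106 and 114 CPM in RAW264.7 and 5.90, 5.42 and 4.28 CPM in BMDMs, a log2 fold change of 4.38 (SE 0.21, FDR 2.4e-30). Elovl6 had 51.7 and 50.7 CPM against 6.44, 7.59 and 6.95 CPM (2.86, SE 0.23, FDR 2.4e-18), and Scd1 27.1 and 23.6 CPM against 7.51, 4.34 and 9.62 CPM (1.81, SE 0.28, FDR 2.6e-08). These fatty acid genes, named for their large called differences, did not overlap between the cells. How many of all genes were separated in this way was not counted. Of the sterol genes, the largest differences were of Hsd17b7, a sterol ketoreductase, at 55.2 and 62.3 CPM against 11.8, 10.8 and 16.6 CPM (2.16, SE 0.19, FDR 5.9e-17), of Fdps, at 231 and 234 CPM against 58.6 to 67.9 CPM (1.88, SE 0.12, FDR 3.5e-24), and of Sqle, at 258 and 262 CPM against 72.4 to 83.4 CPM (1.74, SE 0.11, FDR 9.7e-24). Hmgcs1, Msmo1, Ebp, Sc5d and Dhcr7 were not called, and neither were Srebf1, Srebf2, Scap, Stard4 and Acaca.

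**Figure D5:**
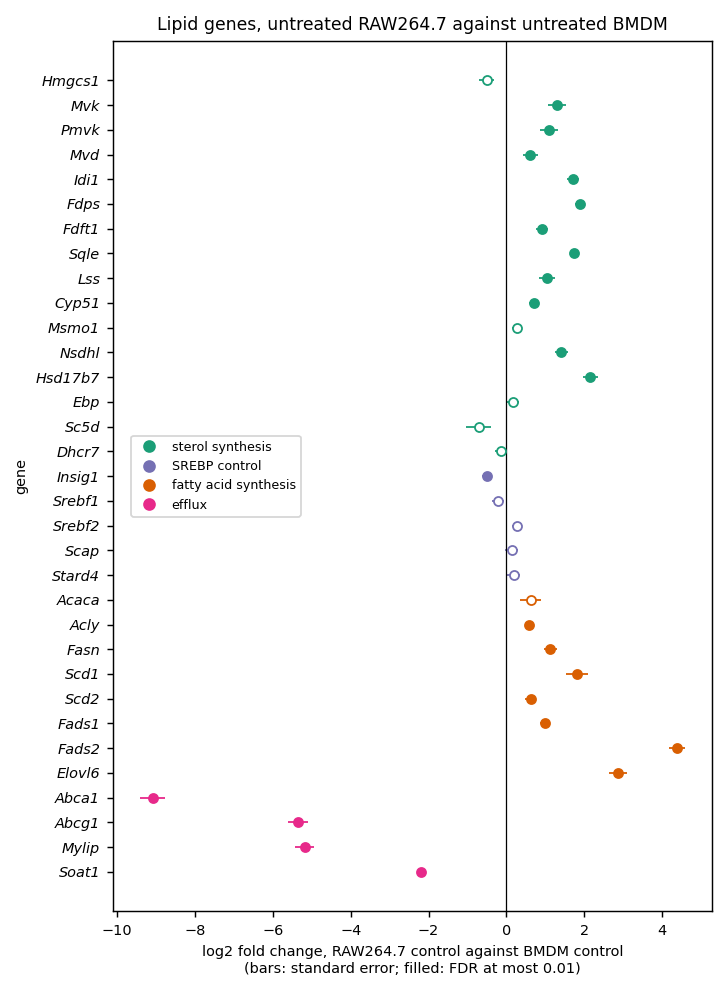
Log2 fold change (horizontal axis) of 33 genes in untreated RAW264.7 against untreated BMDMs, by role (colour), with standard errors (bars) and filled points for an FDR of at most 0.01; Ch25h, with 0 counts in the line, is left out. Filled sterol and fatty acid points lie to the right of 0 and the 4 efflux points to the left.

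LPS for 4 h in RAW264.7 gave 3 higher and 5 lower of 31 genes tested (background 27.9%, 15.1% higher and 12.8% lower, of 9406 genes), with a median log2 fold change of 0.02 against -0.000281 for all genes. DESeq2 called 5 genes. Scaled by total counts only, the split was 3 higher and 10 lower. Scd2 fell from 107 and 107 CPM to 45.0 and 40.5 CPM (-1.29, SE 0.13, FDR 3.6e-22), and Dhcr7 from 43.0 and 49.6 CPM to 19.1 and 21.5 CPM (-1.14, SE 0.17, FDR 6.5e-10). Elovl6 fell to 29.9 and 23.6 CPM (-0.91, SE 0.16, FDR 1.9e-07). Sqle fell to 198 and 194 CPM (-0.37, SE 0.09, FDR 9.2e-05), a call lost with DESeq2 or without the second LPS library. Stard4 fell from 37.8 and 37.0 CPM to 22.7 and 26.3 CPM (-0.56, SE 0.17, FDR 0.0048), a call lost with DESeq2 or without any 1 of the 4 libraries.

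Abca1, Hsd17b7 and Srebf2 rose in RAW264.7. Abca1 had 10.4 and 15.2 CPM after LPS, 70 counts against 3, or 24.4 times (8.01 to 121) the control level, and stayed below every BMDM library. Hsd17b7 rose to 81.6 and 96.7 CPM (0.65, SE 0.12, FDR 1.4e-06), and Srebf2 from 79.8 and 102 CPM to 122 and 131 CPM (0.52, SE 0.11, FDR 6.9e-06), a call lost with DESeq2 or without the first control library. Insig1 had 116 and 134 CPM before and 129 and 121 CPM after LPS, and Srebf1 48.2 and 51.8 CPM and 41.0 and 40.2 CPM, neither called. Abcg1 (0.796 and 1.04 CPM after LPS), Mylip (3.58 and 6.24 CPM) and Ch25h (0.796 and 0 CPM) were not tested for their low counts.

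The effect of LPS in the line and of IFN-γ-LPS in BMDMs, both at 4 h, was then compared in a test of the difference itself, which called 6 genes with the higher effect in RAW264.7 and 3 with the higher effect in BMDMs (background 25%, 9.75% higher and 15.3% lower). The treatments differ by IFN-γ as well as by cell. Soat1, which fell in BMDMs, had 238 and 222 CPM before and 239.7 and 246 CPM after LPS in the line, a difference in log2 effect of 1.77 (SE 0.14, FDR 6.8e-18). Fads1 (1.18, SE 0.23, FDR 2.3e-05), Lss (1.68, SE 0.38, FDR 2.3e-04), Hsd17b7 (1.32, SE 0.34, FDR 0.0011, lost on leaving out control library 3) and Fasn (0.92, SE 0.26, FDR 0.0045, lost on leaving out control library 2 or 3, 4 h library 2 or 3, RAW264.7 control library 1 or 2 or RAW264.7 LPS library 1) also had the higher effect in the line, as did Abca1 (4.70, SE 0.61, FDR 4e-08, from 3 counts in the untreated line). For Dhcr7 and Scd2, lower in both, the differences of 0.58 (SE 0.29, FDR 0.12) and 0.19 (SE 0.25, FDR 0.63) were not called. Idi1, Insig1 and Scap had the higher effect in BMDMs, with differences of -0.74 (SE 0.23, FDR 0.0089), -0.64 (SE 0.17, FDR 0.0015) and -0.84 (SE 0.23, FDR 0.0025). The Idi1 call was lost with DESeq2, DESeq2's size factors, total counts only, no count filter, at least 10 counts in every sample or Rn45s kept or on leaving out control library 1, 2 or 3, 4 h library 2 or 3, IL-4 library 2, RAW264.7 control library 1 or RAW264.7 LPS library 2, the Insig1 call with total counts only or at least 10 counts in every sample or on leaving out 4 h library 2, RAW264.7 control library 2 or RAW264.7 LPS library 2, and the Scap call with DESeq2, total counts only or at least 10 counts in every sample or on leaving out RAW264.7 control library 1 or 2 or RAW264.7 LPS library 2. The split was 6 higher and 1 lower with DESeq2, 7 higher and 2 lower with DESeq2's size factors in edgeR or with Rn45s kept, and 12 higher and 0 lower when scaled by total counts only, where none of those 3 genes was called.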

How the data were processed

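The authors made stranded libraries of 25 samples after removing ribosomal RNA (the labels also say polyA RNA) and deposited, for every gene, the whole number of reads that STAR counted on it (raw counts). The submitters' processing notes name CASAVA 1.8.2, Trimmomatic 0.33, STAR 2.5.1, DESeq2 and the build mm10. The release of the gene annotation is not given in the sources used here. Each deposited table holds unstranded counts and counts for each strand, of which the sense counts entered the tests. Reads on no gene were 62.7% to 69.1% of those on a gene, on none or on several, and did not enter library sizes. Rn45s was removed because its share varied, so the number of informative counts sets the precision.

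Groups came from the sample labels. Genes were filtered with filterByExpr, scaled by TMM and tested by edgeR 4.0.16 in R 4.3.3 (robust quasi-likelihood) with Benjamini-Hochberg adjustment over all genes, in 4 fits: the time course (15 samples), control with IL-4 and IL-13 (9), RAW264.7 (4) and all samples (25). A call is an FDR of at most 0.01. The steps were tested on simulated data with known changes. Alternatives were DESeq2 1.42.0, its size factors, total counts only, Rn45s kept, unstranded counts, other count filters, a replicate block, each library left out and the fold cut of the study. No replicate pair (of 23) agreed within sampling noise, with chi-square per degree of freedom from 1.30 to 4.53. This does not show whether the libraries came from separate mice or cultures. Each library was counted as 1 sample. The intervals of summed counts assume Poisson counts.

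The 34 genes and the 57 further genes were chosen with earlier results of these data known. Values in every sample are given for the 5 efflux genes, Insig1, Srebf1 and Srebf2 and for the genes with the largest called changes in a comparison, and from each further list up to 3 called genes per direction are named with a mean of at least 10 CPM in the higher group. Other genes named, such as Rxra and Apoe, were chosen after their values were seen. Some genes of these lists are not reported here.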

Additional observations from a re-analysis of the deposited data

Results flagged for a closer look

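The first results given here were singled out because 2 effects under one contrast differed in a test of the difference itself. The log2 effect of LPS at 4 h in RAW264.7 minus that of IFN-γ-LPS at 4 h in BMDMs was 4.70 for Abca1, 1.77 for Soat1, 1.68 for Lss, 1.32 for Hsd17b7, 1.18 for Fads1, 0.92 for Fasn, -0.84 for Scap, -0.74 for Idi1 and -0.64 for Insig1. The Abca1 value rests on 3 counts in the untreated line. The calls of Hsd17b7, Fasn, Scap, Idi1 and Insig1 were each lost under some alternatives, as given above. IFN-γ and cell type differ together in this contrast.

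The log2 effect of IFN-γ-LPS at the later time minus that at the earlier time, for genes chosen because they were called in opposite directions at these times, is given with no test, since that choice fixes its direction. It was -2.60 for Insig1 and -1.69 for Mylip from 1 h to 24 h, and -1.64 for Scap, -1.36 for Idi1, -1.09 for Srebf2 and -1.08 for Fdps from 4 h to 24 h. No group held 4 samples, so no search for single outlying samples was made.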

How the results depend on the processing

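Of 183 called values of the 34 genes over 15 comparisons, 130 kept their call and direction under every alternative that could be fitted. The other 53 lost the call in 1 or more. The fold cut is not among these alternatives and is given separately below. A reversal was seen in 1 value, Fdps at 4 h, at -0.00827 on the log2 scale with libraries scaled by total counts only. The fold cut used in the study, put on top of the FDR, left 1 gene at 1 h (background 7.12%), 7 at 4 h (22.8%), 6 at 12 h (17.3%), 6 at 24 h (14.9%), 4 from 1 h to 4 h (14%), 1 from 4 h to 12 h (9.66%), 1 from 12 h to 24 h (1.29%), 2 with IL-4 (3.86%), 1 in RAW264.7 (3.22%), 7 and 6 for IFN-γ-LPS against IL-4 and IL-13 (16% and 16%) and 7 between the untreated cells (23%), since it keeps large changes alone. DESeq2 called 5 in RAW264.7, and 3 higher and 1 lower with IL-4. Scaling by total counts only called 13 in RAW264.7 and 23 for IFN-γ-LPS against IL-13. Requiring at least 10 counts in every sample, which drops genes near 0 in any group, called 10 against IL-4, 14 between the untreated cells and 4 for the difference of the 4 h effects. Leaving out 1 library gave these ranges of the count called: 4 to 11 (1 h), 16 to 18 (4 h), 12 to 16 (12 h), 20 to 24 (24 h), 15 to 19, 11 to 15 and 5 to 9 (the steps between these times, in order), 4 to 5 (IL-4), 5 to 5 (IL-13), 6 to 7 (RAW264.7), 13 to 16 and 11 to 16 (IFN-γ-LPS against IL-4 and IL-13), 22 to 24 (untreated cells) and 6 to 11 (the difference of effects). The replicate numbers did not pair the samples (mean correlation of same-numbered deviations 0.0213 in the time course and 0.00805 with IL-4 and IL-13), and with the number as a replicate block all 183 calls were kept and 4 further values were called. Depth limits Ch25h, Elovl6, Fads2 and Scd1 in BMDMs and Abca1, Abcg1, Mylip and Ch25h in RAW264.7, where groups held few counts.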

Other observations

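Fdft1 overlaps Ctsb, the gene of the lysosomal protease cathepsin B, by 774 exon bases on the opposite strand (GENCODE M21). In control BMDMs the strand opposite to Fdft1 held 317, 309 and 316 counts at this gene, against 80, 78 and 103 counts on its own strand. Without the strand, reads on the shared bases cannot be assigned to either gene. The Fdft1 call at 24 h was kept with unstranded counts.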
